A study of Mus musculus with 1507 samples.

Results

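Ifitm1, Ifitm2 and Ifitm3 are interferon-induced transmembrane genes, and they were chosen by their measured TPM in single mouse ES cells and in primitive endoderm (PrE) cells. They are 3 of 47643 annotated genes. The values that chose them are those by time after dexamethasone, by cell cycle phase, on 4 plates and on the C1 system, so all these levels are given as a description with no test. TPM is a level scaled by transcript length and by the library total, summed here over the transcripts of a gene. Only the comparisons between library methods on purified RNA did not enter that choice, and only they were tested.

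All 1507 libraries of the series come from 5G6GR mouse cells, a line made by random insertion of a vector for Gata6 fused to the glucocorticoid receptor, with a puromycin resistance gene, into EB5 ES cells. ES cells grew with leukemia inhibitory factor, puromycin and blasticidin. For PrE differentiation dexamethasone, which releases the fusion protein into the nucleus, took the place of blasticidin, so the groups differ in both agents and both carry the transgene. RamDA-seq, which reads total RNA of a single cell over the whole transcript length, was applied to cells of all phases before dexamethasone (0 h, 92 cells) and 12 h (91 cells), 24 h (93 cells), 48 h (87 cells) and 72 h (93 cells) after it, to untreated ES cells sorted by DNA content into G1, S and G2M (93, 91 and 93 cells), to 189 ES and 195 PrE libraries on plates B1, B2, E1 and E2, and, on the Fluidigm C1 system, to 16 ES and 39 PrE cells. On the C1 system ES and PrE cells were stained with different dyes, mixed and loaded together. RNA libraries came from total RNA of the ES cells. The labels name no separate cultures for the times, phases or cell types, so the spread given is over cells, or over libraries of 1 kind of RNA, and not over cultures. In single-cell TPM, less RNA of a gene per cell and more RNA of all other genes cannot be told apart.

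IFITM proteins are small membrane proteins of the CD225 family. They sit in the plasma membrane and in endosomes, where they block the fusion of enveloped viruses with the cell, with IFITM3 the best studied antiviral member. In most tissues type I and type II interferons raise them through transcription factors bound to interferon-stimulated response elements (ISREs). Stem cells carry high IFITM levels without interferon, and in the mouse embryo Ifitm1 (fragilis2) and Ifitm3 (fragilis) are known as marks of early primordial germ cells.

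The 3 genes lie within 55932 bases of chromosome 7 in the mm10 build. Ifitm2 (ENSMUSG00000060591.8) spans 140954839 to 140955961 on the minus strand, Ifitm1 (ENSMUSG00000025491.14) spans 140967221 to 140969825 on the plus strand, and Ifitm3 (ENSMUSG00000025492.6) spans 141009586 to 141010770 on the minus strand. Ifitm2 and Ifitm3 have a single annotated transcript each, Ifitm2-201 of 627 bases and Ifitm3-001 of 678 bases, both of 2 exons. Ifitm1 has 3 transcripts, Ifitm1-001 of 882 bases, Ifitm1-002 of 560 bases and Ifitm1-003 of 736 bases. The bases before an annotated start of each gene are shown next, because the interferon response of a gene is read from this stretch. For Ifitm1 it is the start of Ifitm1-002, which held most of its signal, and the stretch lies within the first intron of Ifitm1-001. RefSeq promoter windows (GRCm38.p6, the build of mm10) matched all 3 genes, and each sequence is written 5′ to 3′ on the strand of its gene, from chr7:140967826-140968027 (plus) for Ifitm1, chr7:140955962-140956211 (minus) for Ifitm2 and chr7:141010771-141010994 (minus) for Ifitm3. Capitals mark the letters GAAANNGAAA, a core of the ISRE.
Ifitm1: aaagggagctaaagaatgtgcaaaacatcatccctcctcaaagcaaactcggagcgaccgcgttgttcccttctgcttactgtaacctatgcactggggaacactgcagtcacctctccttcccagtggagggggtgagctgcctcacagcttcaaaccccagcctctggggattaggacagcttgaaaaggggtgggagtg
Ifitm2: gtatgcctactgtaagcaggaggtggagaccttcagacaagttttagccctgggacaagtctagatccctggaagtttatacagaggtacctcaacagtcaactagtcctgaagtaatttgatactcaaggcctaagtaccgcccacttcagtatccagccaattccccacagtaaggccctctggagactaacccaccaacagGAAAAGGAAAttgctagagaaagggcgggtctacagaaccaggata
Ifitm3: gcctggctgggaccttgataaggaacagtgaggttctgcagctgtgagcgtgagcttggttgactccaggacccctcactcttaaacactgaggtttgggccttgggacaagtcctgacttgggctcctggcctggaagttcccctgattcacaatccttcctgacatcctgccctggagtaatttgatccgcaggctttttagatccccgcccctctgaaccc
Ifitm3 element: GAAAAGGAAActtctgaGAAACCGAAAct

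The last line is a site of 29 bases at chr7:141010714-141010742 (minus), inside the first exon of Ifitm3, past its annotated start. It holds the ISRE letters at bases 3 and 20 from the RefSeq start, and between them, from base 14 and overlapping the second match, TTCNNNGAA, the core of the interferon gamma-activated (GAS) element. Ifitm2 holds the ISRE letters once, 46 bases before its start, and CCAAT 91 bases before it. Ifitm1 has none of the searched letters in its window of RefSeq, which only says that these letters are not in that stretch. Both strands were searched. Of 32851 RefSeq windows of 300 bases, 3.44% hold the ISRE letters, 8.30% the GAS letters, 37.4% CCAAT and 13.6% TATAAA, which in Ifitm2 was matched on the other strand 175 bases before the start. Among the 37 interferon-stimulated genes listed for comparison, 13 of the 29 with a window hold the ISRE letters. A match is a description of the letters and not a measured binding site.

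How far reads can tell the 3 genes apart depends on what their transcripts share. The longest run common to the open reading frames of all 3 has 40 bases. It is shown because a read wholly inside it fits each gene equally well. The authors sequenced longer reads than this, before trimming. A longer read reaches past the run, into bases not common to all 3.
Shared run: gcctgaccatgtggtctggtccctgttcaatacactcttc
It is on chromosome 7 in each gene and stands at bases 136 to 175 of Ifitm1-002, 231 to 270 of Ifitm2-201 and 287 to 326 of Ifitm3-001, in the later GENCODE models of the reference. Over the whole frames Ifitm2 and Ifitm3 were identical at 77.2% of aligned bases, Ifitm1 and Ifitm3 at 66.4%, and Ifitm1 and Ifitm2 at 63.7%. Of the words of 31 bases in each transcript, 76.4% occurred in no other gene for the shortest Ifitm1 transcript, 79.5% for Ifitm3 and 44.5% for Ifitm2. Words shared with the other 2 genes were few, 6.60% in Ifitm1, 9.88% in Ifitm3 and 6.24% in Ifitm2. Most of what Ifitm2 shared was with a gene model and pseudogenes that carry no Ifitm name, Gm45717, Gm8865 and Gm11951. Gm45717 and Gm11951 also shared words with Ifitm1 and Ifitm3. Gm8865 and Gm11951, which the tables list, had means of at most 0.54 TPM at every time. Reads of Ifitm2 and of such copies cannot be fully told apart. Gm45717 is not in the annotation the authors used.

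The labelled cell types carried their defining markers. In cells at 0 h the 7 ES markers summed to a median of 944 TPM, and at 72 h to 88.3 TPM (20.6 to 281), with Esrrb, Sox2 and Tdgf1 at a median of 0. The 9 PrE markers summed to a median of 102 TPM at 0 h, with Dab2, Foxa2, Gata4, Pdgfra and Sox17 at a median of 0, and 4226 TPM at 72 h. Gata6 was at 44.9 TPM at 0 h, where reads of the transgene and of the endogenous gene are counted together. On the plates 22 of 384 libraries (14 ES, 8 PrE) had between 22 and 206 detected transcripts, against at least 10616 in the others, and 5 more lay over 1.5 interquartile ranges under the lower quartile of their group. Results from the plates are given with and without these 27 libraries. In the time course 2 of 87 cells at 48 h had ES markers above PrE markers. One of these held 1318 TPM of ES markers and 106 TPM of PrE markers, and the other held 1021 TPM of markers of 2-cell-like cells, a rare state of ES cultures.

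Ifitm1 was at 41.2 TPM or more in every cell at 0 h and at a median of 0 from 48 h on. At 0 h its TPM ran from 41.2 over a median of 143 to 389, with a mean of 145 ± 63.7 (SD, n = 92 cells). At 12 h it ran from 1.16 over 39.1 to 130 (mean 42.7 ± 24.3), and at 24 h from 0 over 8.57 to 72.5 (mean 11.3 ± 11.3). At 48 h the median was 0 and the highest cell 23.1 (mean 0.559 ± 2.58), and at 72 h the median was 0 and the highest cell 3.85 (mean 0.203 ± 0.655). The interquartile ranges of the cells did not overlap between 0 and 12 h, between 12 and 24 h or between 24 and 48 h. The full ranges did overlap, with 40 of 91 cells at 12 h above the lowest cell at 0 h. The mean at 0 h was 3.40-fold that at 12 h, 12.9-fold that at 24 h, 260-fold that at 48 h and 714-fold that at 72 h, and the last 2 ratios rest on a few cells with low values. All cells at 0 and 12 h reached 1 TPM, as did 91 of 93 cells at 24 h, 9 of 87 at 48 h (10.3%, exact binomial 95% interval 4.84% to 18.7%) and 8 of 93 at 72 h (8.60%, 3.79% to 16.2%). Ifitm1 was listed at 0 in 71 cells at 48 h and in 82 cells at 72 h.

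Ifitm2 was the most abundant of the 3 at each time and was lower at each later time, but most cells still held it at the end. At 0 h it ran from 78.5 over a median of 160 to 341 TPM (mean 164 ± 46.7). The medians at 12, 24, 48 and 72 h were 81.7, 58.8, 19.8 and 7.99 TPM, with highest cells of 156, 99.8, 81.9 and 73.3 TPM and means of 84.4 ± 25.5, 57.2 ± 21.6, 22.9 ± 17.4 and 12.7 ± 14.4. The interquartile ranges were apart between 0 and 12 h and between 24 and 48 h, and overlapped between 12 and 24 h and between 48 and 72 h. The mean at 0 h was 1.95-fold that at 12 h and 12.97-fold that at 72 h. At least 1 TPM was found in 85 of 87 cells at 48 h (97.7%) and in 79 of 93 cells at 72 h (84.9%, 76.03% to 91.5%).

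Ifitm3, the antiviral member named above, had the lowest mean of the 3 at 0 h, and up to 24 h the highest coefficient of variation over cells (65.2% at 0 h, 85.6% at 12 h and 109.5% at 24 h). At 48 and 72 h that of Ifitm1 was higher, around means under 1 TPM. At 0 h it ran from 5.12 over a median of 50.1 to 185 TPM (mean 57.4 ± 37.4). The medians at 12, 24, 48 and 72 h were 29.3, 20.6, 5.20 and 2.30 TPM, with highest cells of 204, 183, 136 and 50.8 TPM and means of 37.9 ± 32.4, 32.6 ± 35.7, 14.7 ± 26.03 and 6.66 ± 10.7. The interquartile ranges of neighbouring times overlapped in every case, and the difference between 12 and 24 h (1.16-fold) was smaller than the SD. From 0 to 72 h the mean was 8.62-fold lower. Cells with at least 1 TPM were 64 of 87 at 48 h (73.6%) and 58 of 93 at 72 h (62.4%, 51.7% to 72.2%).

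**Figure D1:**
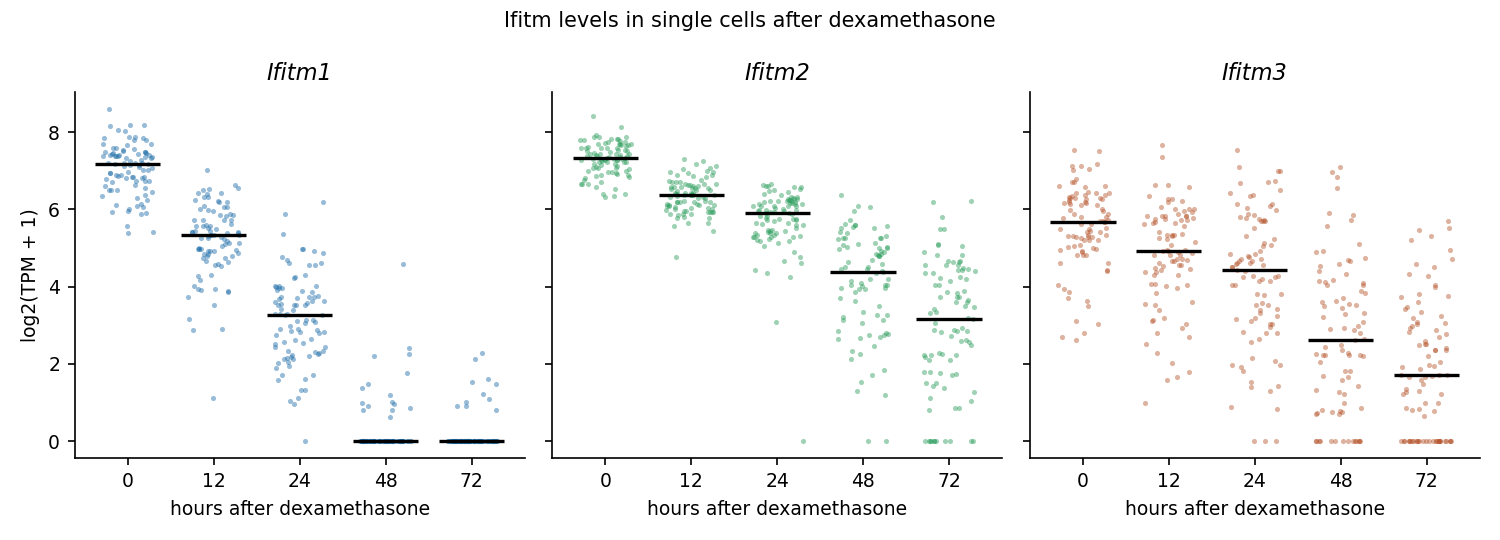
Levels of Ifitm1, Ifitm2 and Ifitm3 as log2(TPM + 1) against hours after dexamethasone, 1 point per cell (92, 91, 93, 87 and 93 cells) and a black line at the median. Ifitm1 has a median of 0 at 48 and 72 h, while Ifitm2 and Ifitm3 keep medians of 7.99 and 2.30 TPM at 72 h.

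On the log2(mean TPM + 1) scale the 72 h minus 0 h difference was -6.92 for Ifitm1, -3.60 for Ifitm2 and -2.93 for Ifitm3. All 3 were thus lower by at least 2-fold, as were 12.1% of the 18288 genes with a mean of at least 1 TPM at some time, while 12.6% were higher by as much. Since this contrast was used in choosing the genes, nothing is read from the count. Genes quantified on the authors' merged gene models, in a table without the cells they called outliers, gave 694-fold, 12.6-fold and 8.47-fold between 0 and 72 h.

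The 3 genes differed in how far their levels were lower at later times, and their shares of the summed level shifted. The summed mean level was 367, 165, 101, 38.1 and 19.5 TPM at 0, 12, 24, 48 and 72 h. Ifitm1 made up 39.6% of it at 0 h, 25.9% at 12 h, 11.1% at 24 h, 1.47% at 48 h and 1.04% at 72 h. The share of Ifitm2 went from 44.8% to 64.9%, and that of Ifitm3 from 15.6% at 0 h to 38.5% at 48 h and 34.1% at 72 h. All 3 genes reached 1 TPM together in 92 of 92 cells at 0 h, 90 of 91 at 12 h, 86 of 93 at 24 h, 7 of 87 at 48 h and 5 of 93 at 72 h. Cells with Ifitm2 but without Ifitm1 at that level were 0 at 0 h, 2 at 24 h, 76 at 48 h and 73 at 72 h, and the reverse combination was found in 1 cell at 24 h and 2 cells at 72 h. None of the 3 reached 1 TPM in 2 cells at 48 h and in 5 cells at 72 h.

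The late cells with Ifitm1 were looked at one by one after their values were seen. The 48 h cell with 23.1 TPM of Ifitm1 also held 81.9 TPM of Ifitm2 and 124 TPM of Ifitm3, and it carried 3841 TPM of PrE markers against 194 TPM of ES markers. Without it the mean of Ifitm1 at 48 h was 0.297 in place of 0.559 TPM, and the next highest cell held 4.28 TPM. The 48 h cell with 1318 TPM of ES markers and Nanog at 621 TPM held 1.80 TPM of Ifitm1, 41.6 TPM of Ifitm2 and 6.29 TPM of Ifitm3, so Ifitm1 was below its lowest value at 0 h. The 48 h cell with markers of 2-cell-like cells held no Ifitm1, 5.46 TPM of Ifitm2 and 3.66 TPM of Ifitm3. Leaving out both cells gave 48 h means of 0.551, 22.9 and 14.9 TPM for Ifitm1, Ifitm2 and Ifitm3. All 8 cells at 72 h with at least 1 TPM of Ifitm1 had PrE markers of at least 3989 TPM.

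By cell cycle phase of undifferentiated ES cells, Ifitm1 was lowest in S and highest in G1. The other 2 genes were also lowest in S, with smaller or noisier differences. Between G1 and G2M the means of Ifitm2 were nearly level. For Ifitm3 the G1 mean was higher, but the medians were 12.3 TPM in G1 and 12.6 TPM in G2M. Ifitm1 had a mean of 115 ± 64.6 TPM in G1 (n = 93), 67.5 ± 48.5 TPM in S (n = 91) and 96.1 ± 53.1 TPM in G2M (n = 93). For Ifitm2 the means were 114 ± 40.7, 97.4 ± 40.3 and 113 ± 37.7 TPM, and for Ifitm3 22.01 ± 27.5, 14.2 ± 16.9 and 17.8 ± 18.7 TPM. The ratio of G1 to S was 1.71 for Ifitm1, 1.17 for Ifitm2 and 1.55 for Ifitm3. The interquartile ranges of the cells overlapped between all phases for each gene, and with 1 sort per phase the sort and the phase cannot be told apart. At least 1 TPM of Ifitm3 was found in 86.02%, 84.6% and 89.2% of cells in G1, S and G2M.

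Cells at 0 h and the phase-sorted cells are both undifferentiated, yet they differed in Ifitm3. The mean at 0 h was 1.26-fold that of G1 cells for Ifitm1, 1.44-fold for Ifitm2 and 2.61-fold for Ifitm3, and 4.05-fold that of S cells for Ifitm3. For Ifitm3 the interquartile ranges of 0 h and G1 cells did not overlap, while for the other 2 genes they did. The 2 kinds of cells are separate sets, so set and sorting cannot be told apart. Other listed genes also differed between 0 h and G1 cells, in both directions, with Bmp4 at 60.04 and 27.1 TPM and B2m at 3.89 and 15.2 TPM.

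Wells of pooled material give the spread between libraries of 1 source. The 9 wells of G1 lysate, each a share of 1 mixed lysate of G1 cells, held 104 to 149 TPM of Ifitm1, 107 to 160 TPM of Ifitm2 and 12.3 to 30.4 TPM of Ifitm3, with medians of 120, 119 and 24.4 TPM. The coefficient of variation over the lysate wells was 12.7%, 14.6% and 25.3%, against 56.1%, 35.8% and 125% over the 93 G1 cells. In 9 wells with 10 pg of ES RNA it was 9.34%, 18.2% and 29.99%, around means of 200 ± 18.7, 177 ± 32.1 and 38.4 ± 11.5 TPM. For each gene the spread over cells was larger than that over either set of wells.

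**Figure D2:**
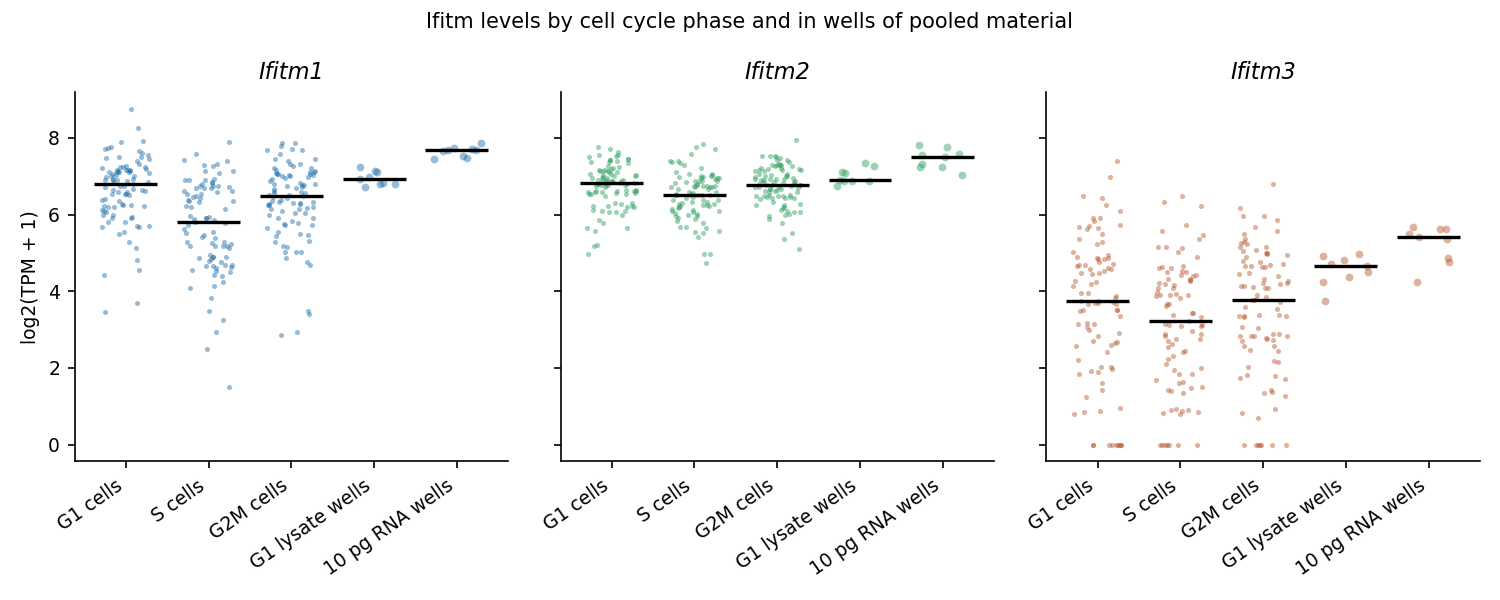
Levels of the 3 genes as log2(TPM + 1) in G1, S and G2M cells (93, 91 and 93 cells), in 9 wells of mixed G1 lysate and in 9 wells of 10 pg ES RNA, 1 point per cell or well and a black line at the median. The wells form tight clusters, while Ifitm3 in cells reaches from 0 to 167 TPM.

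Levels of the genes in the same cell were related within a condition only in part. Over all 456 time-course cells Pearson's r of log2(TPM + 1) was 0.797 between Ifitm1 and Ifitm2, 0.654 between Ifitm1 and Ifitm3 and 0.664 between Ifitm2 and Ifitm3, values to which the differences between times contribute. Within 0 h cells (n = 92) r was 0.539, 0.060 and 0.273, and within 72 h cells (n = 93) it was 0.046, 0.055 and 0.268. Among phase-sorted cells r between Ifitm1 and Ifitm2 was 0.579 in G1, 0.680 in S and 0.705 in G2M. These cells share a library format, their depth is not known from TPM, and the genes share sequence, so r is given as a description only.

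The 4 plates hold ES and PrE cells side by side. On each of them Ifitm1 was the most abundant of the 3 in ES cells and the least abundant in PrE cells. Mean TPM of Ifitm1 in ES cells was 283, 223, 268 and 262 on plates B1, B2, E1 and E2, and in PrE cells 1.04, 0.321, 0.193 and 0.348. For Ifitm2 the ES means were 194, 168, 188 and 191 TPM and the PrE means 14.9, 16.9, 23.2 and 17.7 TPM. For Ifitm3 the ES means were 40.04, 29.3, 53.5 and 30.9 TPM and the PrE means 7.17, 5.32, 8.54 and 8.66 TPM. For each gene all 4 ES means were above all 4 PrE means. As log2(mean TPM + 1), PrE minus ES was -7.49 ± 0.30 for Ifitm1, -3.29 ± 0.27 for Ifitm2 and -2.21 ± 0.34 for Ifitm3 (SD over 4 plates), and without the 27 libraries of few detected transcripts it was -7.58 ± 0.25, -3.34 ± 0.29 and -2.25 ± 0.39. All 3 were lower by at least 2-fold, against 11.5% of 17696 genes lower and 16.0% higher, and here too the contrast was used in the choice.

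Cell by cell, in the 173 ES and 184 PrE libraries left after removal of these 27, the split of Ifitm1 was nearly complete. At least 1 TPM was found in 172 ES cells and in 16 PrE cells (8.70%, 5.05% to 13.7%), with an ES median of 267 TPM and a highest PrE cell of 18.3 TPM. Ifitm2 reached 1 TPM in all 173 ES cells and in 154 PrE cells (83.7%), with medians of 201 and 13.9 TPM. Ifitm3 reached it in 164 ES cells (94.8%) and in 93 PrE cells (50.5%, 43.1% to 57.98%), with medians of 30.8 and 2.23 TPM.

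On the C1 system both cell types held more of each gene, and Ifitm1 was present in most PrE cells. ES cells ran from 159 over a median of 328 to 692 TPM of Ifitm1 (mean 364 ± 144, n = 16), and PrE cells from 0 over 7.53 to 22.3 TPM (mean 8.66 ± 5.73, n = 39). At least 1 TPM of Ifitm1 was found in 36 of 39 C1 PrE cells (92.3%), against 8.70% of PrE cells on the plates. Ifitm2 had means of 381 ± 101 and 53.9 ± 37.9 TPM and Ifitm3 of 87.5 ± 69.8 and 32.8 ± 38.2 TPM. The ratio of ES to PrE means was 42.1 for Ifitm1, 7.07 for Ifitm2 and 2.67 for Ifitm3. The mean of 6 of the 7 ES markers was higher in C1 PrE cells than in PrE cells on plates, all but Klf4 (65.9 against 85.2 TPM), and that of 8 of the 9 PrE markers was higher in C1 ES cells than in ES cells on plates, all but Gata6 (61.6 against 76.3 TPM), with Lama1 nearly level (67.1 against 66.3 TPM). C1 PrE cells held a mean of 28.9 TPM of Zfp42, 6.16 of Tdgf1 and 3.30 of Sox2, against 9.88, 0.172 and 0.356 in PrE cells on plates, and none of the 7 ES markers had a median of 0. C1 ES cells held 9.78 TPM of Gata4, 10.5 of Dab2 and 5.15 of Sox17, against 1.39, 0.864 and 0.223 in ES cells on plates. The summed ES markers of C1 PrE cells ran from 73.6 over a median of 180 to 505 TPM, and those of plate PrE cells from 40.6 to 563 TPM with medians of 140 to 188 TPM on the 4 plates. The part of RNA from the other cell type in the C1 levels of Ifitm1 was not tested, and platform and cell handling cannot be told apart.

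**Figure D3:**
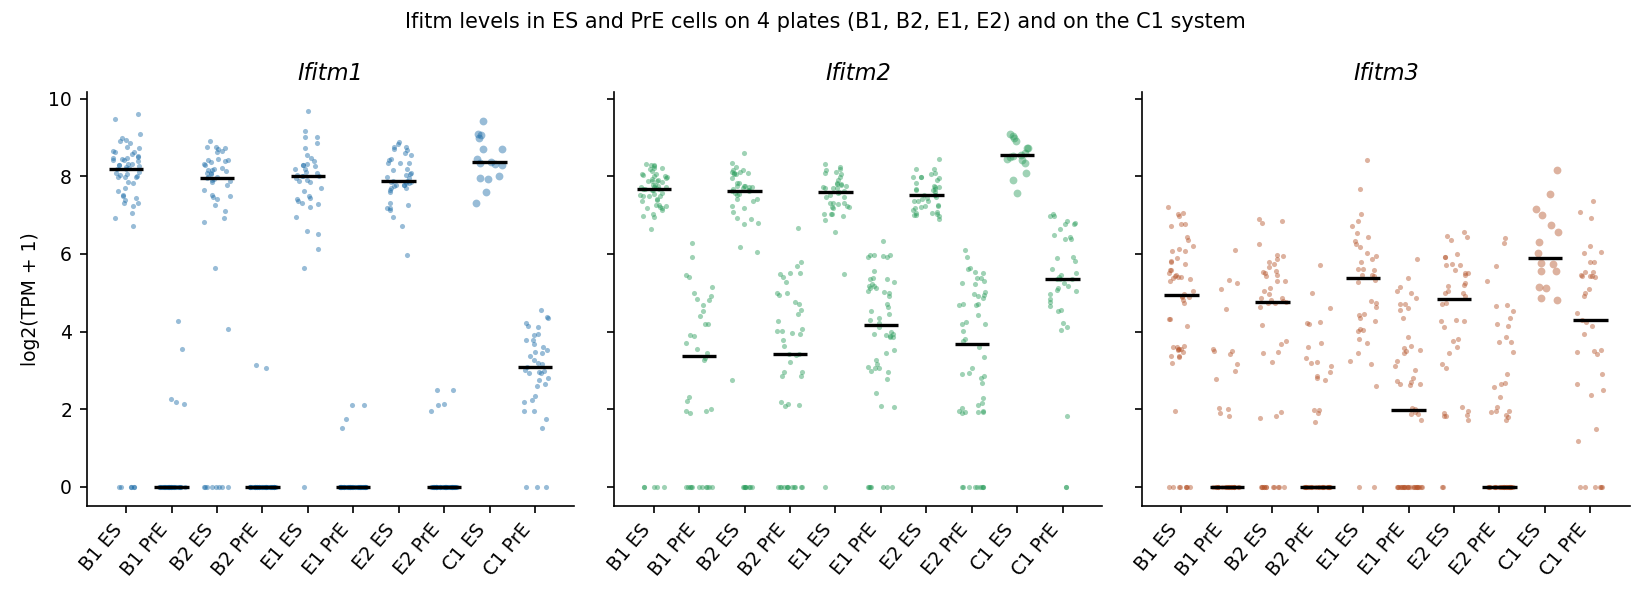
Levels of the 3 genes as log2(TPM + 1) in ES and PrE cells on plates B1, B2, E1 and E2 (all 384 libraries, including 22 with few detected transcripts) and on the C1 system (16 ES, 39 PrE), 1 point per cell and a black line at the median. Ifitm1 has a median of 0 in PrE cells on each plate and of 7.53 TPM in C1 PrE cells.

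In order of mean TPM, C1 ES cells stood highest for all 3 genes. For Ifitm1 the ES cells on the 4 plates, the 10 pg wells, the 0 h cells, the lysate wells and the G1, G2M, S and 12 h cells came next. Below them stood 24 h and C1 PrE cells, and last 48 h, 72 h and plate PrE cells, all at or under 1.04 TPM. Of 19 pairs of neighbours in this order 2 differed by more than the larger SD of the pair, 12 h against 24 h cells and C1 PrE cells against PrE cells of plate B1. For Ifitm2 it was also 2 pairs of 19, C1 ES cells against ES cells of plate B1 and 12 h against 24 h cells, and for Ifitm3 none of 19. The order across tables is given with the limit that each table was scaled on its own.

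Among the Ifitm1 transcripts, Ifitm1-002, which starts at 140968028 and is the shortest, held most of the signal. It took 91.1% of Ifitm1 TPM at 0 h, 90.7% at 12 h, 89.8% at 24 h and 79.2% at 48 h, and 86.9%, 82.9% and 83.8% in G1, S and G2M. Ifitm1-003, which starts 12 bases further on, held most of the remainder, 8.36% at 0 h and 20.8% at 48 h. Ifitm1-001, with the start farthest upstream, held 0.587% at 0 h. At 48 h these shares rest on a mean of 0.559 TPM.

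Other members of the family were at or near the floor. Ifitm5, a bone gene beside Ifitm2, had a mean of 1.06 TPM at 0 h and 0.226 TPM at 72 h. Ifitm7, on chromosome 16, went from 1.94 to 0.275 TPM, Ifitm6 from 0.174 to 0 TPM and Ifitm10 from 0.0842 to 0.185 TPM. Of these 4 genes 2 reached a mean of 1 TPM, and 1 of them, Ifitm7, was lower at 72 h by at least 2-fold on the log2(mean TPM + 1) scale. Of the 7 other CD225 genes 3 reached 1 TPM, and of these Tmem91 was lower by at least 2-fold (5.26 to 1.69 TPM), while Prrt2 went from 2.45 to 0.937 TPM and Tmem265 from 3.14 to 2.50 TPM. The share of all genes lower by as much was 12.1%.

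Genes near the 3 went in both directions. Within 200 kb on each side lie 30 other annotated genes, of which 21 had a mean of at least 1 TPM at some time. At 72 h 5 of these were lower than at 0 h by at least 2-fold (23.8%, against 12.1% of all genes) and 1 was higher (4.76%, against 12.6%). The lower ones were B4galnt4 (14.8 to 0.774 TPM), Sigirr (11.6 to 1.66 TPM), a negative regulator of interleukin and Toll-like receptor signals, Urah (4.46 to 0.299 TPM), Ano9 (10.3 to 2.03 TPM) and Sirt3 (6.89 to 2.94 TPM), a mitochondrial deacetylase. Bet1l, a SNARE protein of the Golgi, was higher (2.90 to 8.27 TPM). The proteasome gene Psmd13 stood at 137 and 93.3 TPM and the GTPase gene Hras at 24.1 and 28.6 TPM. Sigirr and B4galnt4 lie on the far side of Ifitm3, and Ifitm5 and Ifitm6, which flank the 3 genes, stayed at or under 1.06 TPM.

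The genes most like Ifitm1 over the 456 time-course cells, among 6999 genes with a mean of at least 10 TPM, were Sept1 (r = 0.915), Pla2g1b (0.911), Igfbp2 (0.905), Adam23 (0.905) and Krt42 (0.8996). Sept1, a septin, went from 263 TPM at 0 h to 72.7 at 12 h and 1.88 at 72 h, and Igfbp2, which binds insulin-like growth factors, from 93.8 to 19.1 and 0.471 TPM. For Ifitm2 they were Gm38312 (0.804), Parp1 (0.801), Gm43041 (0.794), Cmah (0.794) and AU018091 (0.790). Parp1, the poly(ADP-ribose) polymerase of DNA repair, went from 260 TPM at 0 h to 63.2 TPM at 72 h. For Ifitm3 they were Parp1 (0.623), Gsta4 (0.623), Adam23 (0.622), Fam25c (0.621) and Platr10 (0.618), a looser likeness. With Spearman's correlation 3 of the 5 for Ifitm1, 1 of the 5 for Ifitm2 and 4 of the 5 for Ifitm3 stayed among the top 5. The likeness is across cells of 5 times, includes the differences between times, and has no test.

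Several interferon receptor genes were higher in differentiated cells, while the 3 Ifitm genes were lower. Of the 9 interferon receptor and kinase genes 8 reached a mean of 1 TPM at some time, 5 were higher at 72 h than at 0 h by at least 2-fold and none was lower, with a median log2 difference of 1.34 against -0.01 over all 18288 genes. Of those 18288 genes 12.6% were higher and 12.1% lower by as much. Ifngr1, which binds interferon gamma, went from 2.04 to 12.7 TPM, and Ifnar1, a chain of the type I receptor, from 14.7 to 30.98 TPM. Of 8 interferon transcription factors 7 reached a mean of 1 TPM at some time and 1 of these was lower, Irf1 (11.7 to 4.10 TPM), with a median of 0.09. Irf2, which stayed under that cut, went from 0.116 to 0.879 TPM. Irf9 stood at 6.23 and 4.56 TPM.

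Most classical interferon-stimulated genes stayed low. Of 37 listed, 16 reached a mean of 1 TPM at some time, 5 of these were lower at 72 h by at least 2-fold, 2 were higher and 9 were neither, with a median of -0.29. The shares over all genes were 12.1% lower and 12.6% higher. Ifit1, which binds viral RNA lacking normal caps, stood at 0.0641 and 0.0446 TPM at 0 and 72 h, Isg15, a ubiquitin-like modifier, at 0.737 and 0.694 TPM, and Rsad2 (viperin) at 0.0496 and 0.0378 TPM. The lower ones were Bst2 (6.61 to 1.20 TPM), which tethers virions to the cell, Xaf1 (25.2 to 8.33 TPM), Adar (16.8 to 7.15 TPM), Oas2 (1.80 to 0.00165 TPM), which senses double-stranded RNA, and Parp14 (3.33 to 0.660 TPM). The higher ones belong to antigen presentation, B2m (3.89 to 48.6 TPM) and the peptide transporter Tap1 (0.460 to 6.35 TPM). Each of the 3 Ifitm genes at 0 h was above every listed interferon-stimulated gene, of which Trim25 was the highest at 45.9 TPM. For Ifitm3 this did not hold in all ES groups. It was below Trim25 in G1 cells (22.01 against 41.4 TPM) and in ES cells on the plates (41.4 against 48.7 TPM, without the 27 libraries). In C1 ES cells Ifitm3 was at 87.5 TPM, above the highest listed gene, Xaf1, at 58.3 TPM.

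On the plates the same lists gave 6 of 8 receptor and kinase genes higher and none lower, none of 8 transcription factors past 2-fold in either direction, and 4 of 17 interferon-stimulated genes lower and 3 higher, where 11.5% of all genes were lower and 16.0% higher.

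Genes that act on IFITM3 protein or lie beside it in membranes are set beside the 12.6% of all genes that were higher and the 12.1% that were lower. Of 8 modifying enzymes 3 were higher at 72 h by at least 2-fold and 1 was lower, with a median of 0.42. The ubiquitin ligase Nedd4, which marks IFITM3 for degradation, went from 258 to 115 TPM, and Setd7, a methyltransferase that modifies it, from 1.21 to 25.4 TPM. Zdhhc7 (7.27 to 16.7 TPM), a palmitoyltransferase, and Zmpste24 (9.06 to 20.2 TPM), a membrane protease and partner of IFITM proteins, were the other 2 higher. Of 5 tetraspanins, the membrane proteins among which CD81 is a known partner of IFITM1, 4 were higher and none lower, with Cd9 at 73.9 and 163 TPM and Cd63 at 46.6 and 266 TPM.

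Germ cell genes that share an early expression with the fragilis genes were low in ES cells and lower later. Of 6 primordial germ cell markers 4 reached 1 TPM and all 4 were lower at 72 h by at least 2-fold, Prdm1 (5.44 to 0.0153 TPM), Prdm14 (9.58 to 0 TPM), Tfap2c (6.23 to 0.878 TPM) and Dnd1 (2.51 to 0.720 TPM). Over all genes 12.1% were lower and 12.6% higher by as much. Dppa3 and Nanos3, further markers of these cells, stayed at or under 0.650 TPM. Of 7 ES markers 6 were lower, Klf4 being the exception (38.9 to 54.8 TPM), and all 9 PrE markers were higher. Of 6 mesoderm markers 2 reached a mean of 1 TPM at some time, with Bmp4 (60.04 to 0.276 TPM) lower and Eomes neither. Markers of 2-cell-like cells were at or near 0 at both 0 and 72 h, and 3 of 6 reached a mean of 1 TPM only at 48 h, where the cell described above held 1021 TPM of them.

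**Figure D4:**
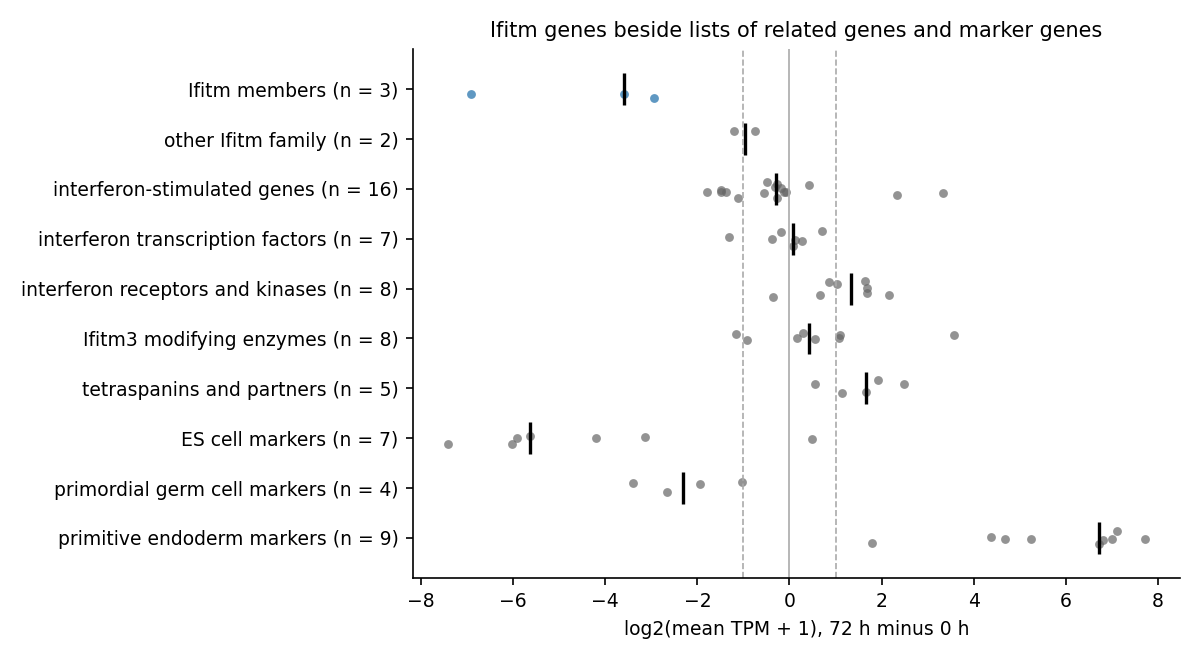
Difference in log2(mean TPM + 1) between 72 h and 0 h for each gene with a mean of at least 1 TPM at some time, by list, with a black line at the median of the list and dashed lines at 2-fold. The 3 Ifitm genes, in blue, lie at -6.92, -3.60 and -2.93, while the interferon receptor and kinase genes have a median of 1.34.

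The library methods were compared on purified ES RNA, to ask whether a method recovers the 3 genes equally. Values are CPM, estimated counts scaled to a common library total, with TMM factors (which align the bulk of genes) within each comparison, and each test is edgeR's quasi-likelihood test with p-values adjusted by Benjamini-Hochberg over all genes tested, with a threshold of 0.05. The 10 pg and 1 µg libraries summed to 5706348 to 8962910 estimated counts. The libraries share 1 kind of RNA, so p measures technical spread. The RamDA-seq libraries from 10 pg and the rdRNA-seq libraries from 1 µg each serve in 2 comparisons.

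SMART-Seq v4, which primes from the poly(A) tail, gave more of all 3 genes than RamDA-seq from 10 pg. The 3 RamDA-seq libraries held 132, 141 and 151 CPM of Ifitm1 and the 4 SMART-Seq v4 libraries 715, 558, 468 and 690, so the groups did not overlap. The log2 difference, RamDA-seq minus SMART-Seq v4, was -2.10 ± 0.18 (SE, adjusted p = 0.000528, edgeR). Ifitm2 had 128, 117 and 139 against 578, 608, 684 and 529 CPM, a log2 difference of -2.23 ± 0.14 (adjusted p = 0.000128, edgeR). Ifitm3 had 40.7, 14.1 and 31.6 against 74.6, 160, 110 and 82.1 CPM, with raw counts of 177, 62.3 and 138 in the RamDA-seq libraries. Its groups did not overlap either, and the log2 difference was -1.89 ± 0.50 (adjusted p = 0.0443, edgeR), a call that was lost without any 1 of 6 of the 7 libraries (adjusted p up to 0.119). All 3 were called lower, as were 6.62% of 12566 genes, while 7.43% were called higher. With library size only in place of TMM the median log2 difference over all genes moved by -0.66 and calls went from 934 higher and 832 lower to 735 and 1793, and the 3 genes were still lower.

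Short transcripts as a class differed the same way. Among 2089 genes with a median transcript length under 700 bases, the class of Ifitm2 and Ifitm3, the median log2 difference was -0.37. Among 2395 genes of 700 to under 1000 bases, the class of Ifitm1 (median 736 bases), it was -0.29. It was 0.12 over all genes and 1.53 over genes of at least 4000 bases. The 3 Ifitm differences lay below the lower quartiles of their classes, -1.43 and -1.12. The part of length in the Ifitm differences was not tested.

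The chips repeated the comparison with many libraries, 95 of C1-RamDA-seq and 94 of C1-SMART-Seq v4 from 10 pg. Ifitm1 ran from 153 over a median of 207 to 278 CPM against 311 over 446 to 585, and the groups did not overlap (log2 difference -1.10 ± 0.03, adjusted p = 3.78e-94, edgeR). Ifitm2 ran from 154 over 203 to 269 against 371 over 466.2 to 615, again without overlap (-1.23 ± 0.03, adjusted p = 3.61e-109, edgeR). Ifitm3 ran from 36.7 over 70.7 to 112 against 39.9 over 97.2 to 148, and here the groups overlapped (-0.45 ± 0.05, adjusted p = 2.39e-16, edgeR). All 3 were called lower, as were 40.8% of 8930 genes, with 44.1% called higher, so a call by itself says little here. With library size only the median over all genes moved by -0.27, with 3221 calls higher and 4404 lower in place of 3939 and 3640, and with DESeq2 on the same genes 4882 were higher and 2815 lower, and the 3 genes were lower under both. Library totals were 677264 to 722762 and 939496 to 956848 estimated counts, and each method was run on 1 chip, so chip and method cannot be told apart.

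Against rdRNA-seq, the ribosome-depleted bulk library from 1 µg, none of the 3 genes was called in RamDA-seq from 10 pg. Ifitm1 had 113, 121 and 126 CPM in RamDA-seq and 146, 143 and 151 in rdRNA-seq, a log2 difference of -0.29 ± 0.08 that missed the threshold (adjusted p = 0.0506, edgeR, 95% interval -0.49 to -0.09), and 5 of 11 alternatives left it uncalled. Ifitm2 had 109, 99.9 and 116 against 124, 123 and 127 (-0.20 ± 0.09, adjusted p = 0.183, edgeR, interval -0.42 to 0.02). For both genes all RamDA-seq libraries lay below all rdRNA-seq libraries in CPM. Ifitm3 had 34.7, 12.1 and 26.4 against 20.2, 24.8 and 26.4 (0.04 ± 0.38, adjusted p = 0.961, edgeR, interval -0.87 to 0.94), with a spread in RamDA-seq too wide to exclude a difference of nearly 2-fold in either direction. Over all genes 10.2% of 13586 genes were called higher and 11.5% lower. Without TMM the median over all genes moved by -0.29, with 817 calls higher and 2525 lower in place of 1381 and 1560. For Ifitm1 the call was made with library size only (-0.58, adjusted p = 0.00591, edgeR), and for Ifitm2 as well (-0.49, adjusted p = 0.0140, edgeR). As TPM of the authors' merged models the groups overlapped for both genes. Ifitm1 had 143, 161 and 183 TPM in RamDA-seq against 173, 158 and 205 in rdRNA-seq. Ifitm2 had 131, 120 and 152 against 119, 118 and 140 TPM, so its lower level in CPM was not seen in TPM.

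Between the bulk libraries from 1 µg, rdRNA-seq and paRNA-seq, which selects poly(A) RNA, the TMM-scaled CPM of the 3 genes differed by at most 0.20 on the log2 scale, while their TPM differed far more. Ifitm1 had 180, 175 and 186 against 161, 148 and 170 CPM (0.18 ± 0.05, adjusted p = 0.0122, edgeR), and Ifitm2 had 153, 151 and 156 against 127, 137 and 137 (0.20 ± 0.04, adjusted p = 0.00170, edgeR). Neither pair of groups overlapped. Ifitm3 had 24.8, 30.5 and 32.4 against 27.3, 24.2 and 29.7, which overlapped (0.11 ± 0.11, adjusted p = 0.406, edgeR). Of the 3 genes 2 were called higher, as were 23.8% of 14347 genes, with 26% called lower. The direction of the Ifitm1 and Ifitm2 differences depends on the scaling: with library size only they were -0.13 and -0.12, as the median over all genes moved by -0.31 and calls went from 3420 higher and 3737 lower to 1399 and 7657, and neither passed the threshold (adjusted p = 0.0622 and 0.0593, edgeR). As TPM of the authors' merged models, paRNA-seq was higher for each gene without overlap, at 440 to 468 against 158 to 205 for Ifitm1, 324 to 345 against 118 to 140 for Ifitm2 and 60.3 to 69.2 against 23.9 to 25.5 for Ifitm3. The order of the methods thus differed between these CPM and these TPM. The 2 sets of values differ in unit, gene models and number of reads sampled, and the part of each was not tested.

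With 1 ng of RNA in both, RamDA-seq gave lower CPM of Ifitm1 and Ifitm2 and higher CPM of Ifitm3 than rdRNA-seq, but only the Ifitm3 difference was also seen in TPM. Ifitm1 had 131, 117 and 116 against 191, 184 and 185 CPM (-0.62 ± 0.07, adjusted p = 3.08e-06, edgeR), and Ifitm2 had 124, 125 and 137 against 180, 170 and 177 (-0.45 ± 0.07, adjusted p = 9.82e-05, edgeR). Ifitm3 had 64.7, 55.7 and 64.6 against 31.5, 37.2 and 35.4 (0.83 ± 0.11, adjusted p = 1.22e-05, edgeR). In each case all libraries of one method lay on the same side of all libraries of the other. So 2 genes were called lower, against 19.8% of 14769 genes, and 1 was called higher, against 18.2%. Without TMM the median over all genes moved by 0.11, with 3526 calls higher and 2275 lower in place of 2693 and 2921, and the 3 calls held. As TPM, Ifitm1 had 284, 281 and 268 in RamDA-seq against 310, 263 and 346, and Ifitm2 had 242, 265 and 281 against 248.8, 207 and 279.8, and for both genes the groups overlapped. Ifitm3 had 113, 105 and 118 TPM against 39.03, 40.5 and 50.04, without overlap. Totals were 5709807 to 5852670 and 7002605 to 7052972 estimated counts.

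**Figure D5:**
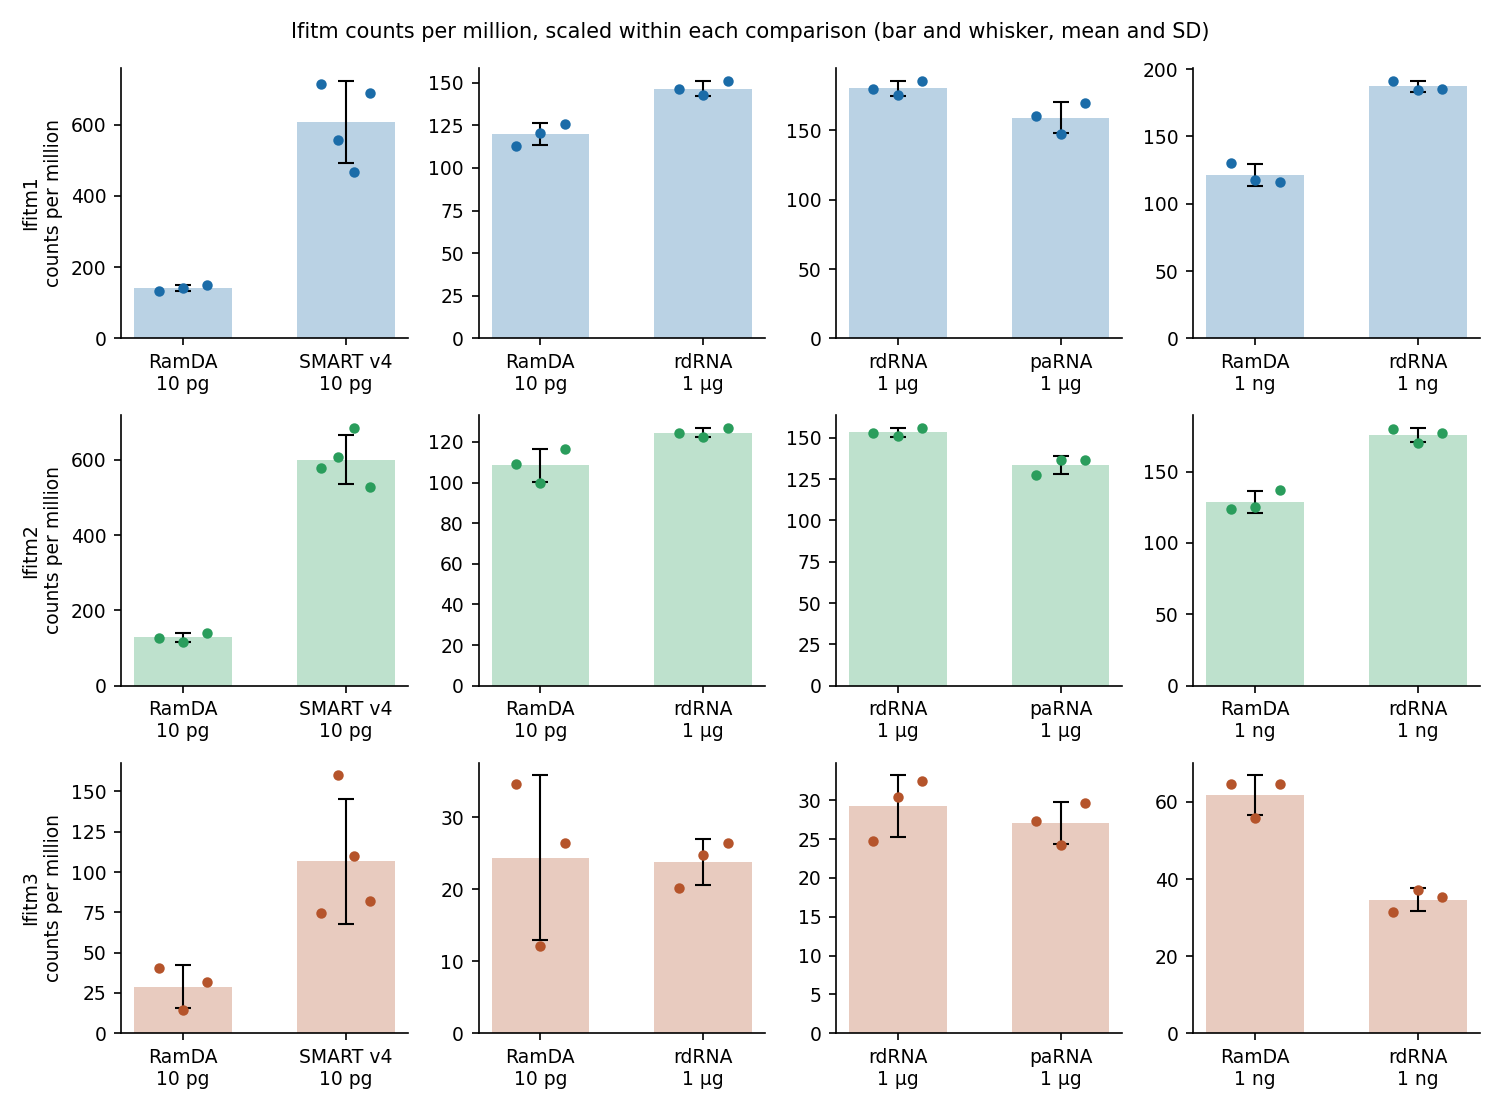
CPM, scaled by TMM within each comparison, of Ifitm1, Ifitm2 and Ifitm3 (rows) in 4 comparisons of library methods on ES RNA (columns), 1 point per library with the mean as a bar and the SD as a whisker, from 0 on each axis. SMART-Seq v4 libraries lie above RamDA-seq libraries for each gene, and from 1 ng only Ifitm3 is higher in RamDA-seq.

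Transcript shares of Ifitm1 also varied by method, given as a description. Of its counts Ifitm1-002 took 95.7% in rdRNA-seq from 1 µg and 97.05% from 1 ng, 85.1% in paRNA-seq, 80.4% in SMART-Seq v4 and 80.9% in RamDA-seq libraries of 10 pg, and 73.7% in the C1-SMART-Seq v4 chip. As TPM of the merged models, 4 libraries of C1-RamDA-seq from 10 pg held 325 to 389.9 of Ifitm1, 208 to 252 of Ifitm2 and 78.1 to 95.4 of Ifitm3. The 3 of RamDA-seq held 143 to 183, 120.4 to 152 and 12.9 to 41.2, so each C1 library was above them for all 3 genes. In estimated counts the 96 wells of a RamDA-seq plate from 10 pg held 85.8 to 151 of Ifitm1 (median 125), 70.5 to 145 of Ifitm2 (median 99.0) and 10.5 to 49.9 of Ifitm3 (median 27.7), so no well lacked any of the 3 genes.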

How the data were processed

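Reads were trimmed and quantified by the authors with Sailfish and library type U, without use of strand, on GENCODE vM9 transcripts, in part with ERCC sequences, or on models they joined with assembled transcripts. The authors deposited estimated counts (expected counts) per transcript for RNA libraries and TPM per transcript for single cells, wells and some RNA libraries. TPM hold no depth. Transcripts were summed per gene and no read was counted again here.

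The members and the gene lists were chosen with earlier results of these data known. Named genes were the 3 members, every gene of the lists, every gene within 200 kb, and for each member the 5 genes of highest r. The lists were other Ifitm and CD225 genes, interferon receptors, factors and stimulated genes, IFITM3 enzymes, tetraspanins and markers of ES, PrE, germ, mesoderm and 2-cell-like cells. Levels were described over cells, with exact binomial intervals that cover counting error only, and doublets were not called. Plate libraries were also removed where detected transcripts (TPM of at least 0.1) lay over 1.5 interquartile ranges under the lower quartile. A pseudocount of 1 was added for log2. Rounded gene counts were tested with edgeR 4.0.16 (filterByExpr, TMM, glmQLFit, glmQLFTest), with ERCC rows left out, and alternatives used DESeq2 1.42.0 on all genes with a count and, added later, on the genes of the edgeR filter, no filter, library size only, glmTreat at 0.5, a replicate block and single libraries left out. The tests were also run on simulated counts drawn with a single dispersion shared by all genes. The real libraries differ in spread, and no result given here rests on that run. Scripts ran in R 4.3.3 with limma 3.58.1 and in Python 3.11.15 with scipy 1.17.1, pandas 2.3.3, matplotlib 3.10.9 and numpy 2.4.6. Bulk PrE libraries were not analysed here, and 16 columns of per-sample values were not used.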

Additional observations from a re-analysis of the deposited data

How the results depend on the processing

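Of 332 alternative values 288 counted as the same, 23 as weaker, 11 as stronger, 8 as moved and 2 as reversed. A gene counted as reversed if its sign turned and either value was called. An uncalled gene that stayed uncalled counted as the same even where its sign turned. The log2 difference of Ifitm3 thus ran from -0.20 to 0.22 between rdRNA-seq and paRNA-seq. It ran from -0.31 to 0.35 between RamDA-seq from 10 pg and rdRNA-seq. A number of calls counted as the same within a set fold of the main one. With library size only, the log2 difference between rdRNA-seq and paRNA-seq became -0.13 for Ifitm1 and -0.12 for Ifitm2. At 10 pg, calls over all genes for RamDA-seq against SMART-Seq v4 went from 1766 to 4106 with DESeq2, run on all genes with a count, 3548 with DESeq2 on the genes of the edgeR filter, an alternative added after seeing the data, and 993 without a filter, and ranged from 564 to 1972 with 1 library left out, 564 being without RamDA-seq replicate 1. Between RamDA-seq and rdRNA-seq 1 µg they ranged from 1280 (without rdRNA-seq replicate 1) to 4312 (without RamDA-seq replicate 2) around 2941, between rdRNA-seq and paRNA-seq they fell from 7157 to 2305 with glmTreat at 0.5, and for the chips they rose from 7579 to 15038 with DESeq2 on all genes with a count and 21141 without a filter, but were 7697 with DESeq2 on the genes of the filter. With the replicate block calls were 334 in the first and 1551 in the second of these comparisons, and the Ifitm3 call in the first was lost (adjusted p = 0.218, edgeR). Deviations of same-numbered libraries correlated at 0.0238 or less, and those of differently numbered libraries at up to 0.0628. Values this small cannot decide whether libraries of the same number share a source. The Ifitm3 call also missed the threshold without a filter (adjusted p = 0.0710, edgeR), and over its 12 alternatives p ran from 0.000720 to 0.218. Ifitm1 in RamDA-seq against rdRNA-seq 1 µg passed with DESeq2 (adjusted p = 0.0446, and 0.0353 on the filtered genes) and without RamDA-seq replicate 1, 2 or 3 (adjusted p = 0.0455, 0.0433 and 0.0231, edgeR). In rdRNA-seq against paRNA-seq Ifitm1 missed it without paRNA-seq replicate 2 (adjusted p = 0.0614, edgeR) and both genes missed it without a filter (0.137 and 0.0548) and with glmTreat. In the 1 ng and chip comparisons no alternative changed a call of the 3 genes. At a TPM of 0.1 Ifitm3 was present in 100.0% of 12 h, 83.9% of 48 h and 92.3% of S cells. PrE minus ES on the plates was -8.01, -3.93 and -4.48 for Ifitm1, Ifitm2 and Ifitm3 with medians over cells, and -9.01 for Ifitm1 with a pseudocount of 0.1. In PrE cells the Ifitm3 median was 0 on plates B1, B2 and E2 and 2.93 TPM on E1, so its difference of medians rests on values at or near the floor. The Ifitm1 value with the smaller pseudocount rests on PrE means of 0.193 to 1.04 TPM. The cause of the other moves was not tested. Ifitm3 had 62.3 to 177 counts per 10 pg RamDA-seq library.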
